A study of Mus musculus with 12 samples.

Results

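The epidermal growth factor (EGF) family is a set of secreted or membrane-anchored ligands that bind ErbB receptors, which are tyrosine kinases at the cell surface. Measurements are given here for the ligands Egf, Tgfa, Hbegf, Btc and Areg, the receptors Egfr, Erbb2 and Erbb3, and Egfbp2, a kallikrein-type protease named for its binding to EGF. Members were taken as all probes whose 1 gene symbol in the array annotation was 1 of these 9 names, which gave 15 of 45281 probes and 8 of the 9 genes. No probe carried Areg as its symbol, so amphiregulin was not analysed here. The rule that picked the probes went by symbol alone.

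Total RNA of submandibular salivary glands of C57BL6J mice was hybridised to Illumina bead arrays, 6 for mice aged 8 weeks (young) and 6 for mice aged 50 weeks (old). No treatment, genetic change or sex is named for either age. Whether the 6 arrays of an age stand for 6 animals is not stated, and the p-values then cover only the spread among arrays, some of which may be technical. The comparison asks how the old gland differs from the young one, and 2 ages cannot separate late growth from ageing.

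In this gland the granular convoluted ducts of mice make pro-EGF and kallikreins and secrete them into saliva, and androgens raise the content of those ducts. The ligands are made as precursors that proteases release from the membrane. Ligand binding pairs the receptors, whose tails then recruit adaptors of the Ras-MAPK and PI3K-Akt pathways, while inhibitors and phosphatases induced by the same signal limit it. Egfr binds EGF, Tgfa, Hbegf and Btc, Erbb2 has no ligand of its own, and Erbb3 binds neuregulins and has little kinase activity.

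Mean intensity per array ran from 207 to 324, and 15318 to 18110 probes were detected, meaning that their detection p-value was under 0.05. The array 50 weeks array 6 stood apart, with a mean correlation of 0.936 with the other arrays of its age, the lowest of the 12. Products of granular ducts were present in the values, and 12 of 16 listed genes had a probe, each of which passed the detection filter. The Y-linked genes Eif2s3y and Kdm5d passed detection on 12 of 12 arrays, and Xist on 0 of 6 at 8 weeks and 1 of 6 at 50 weeks.

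No member passed the test between the ages. Of the 15 member probes, 10 were detected on at least 6 of the 12 arrays and were tested, and 0 were higher and 0 lower at 50 weeks by limma's moderated test with Benjamini-Hochberg adjustment over all 16254 probes tested. Over all of those probes 9.64% passed, 4.95% as higher and 4.69% as lower. At an unadjusted p under 0.05 there was 1 of 10 member probes, that of Btc, against 24.7% of all probes tested. The median log2 change of the 10 probes was 0.02, against -0.02 for all probes, and the median size was 0.12 against 0.15. A change is the log2 intensity of the old arrays minus that of the young, given ± the standard error from limma, and a mean is given ± SD over 6 arrays. In bulk tissue, fewer cells of a type and less RNA per cell cannot be told apart.

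**Figure D1:**
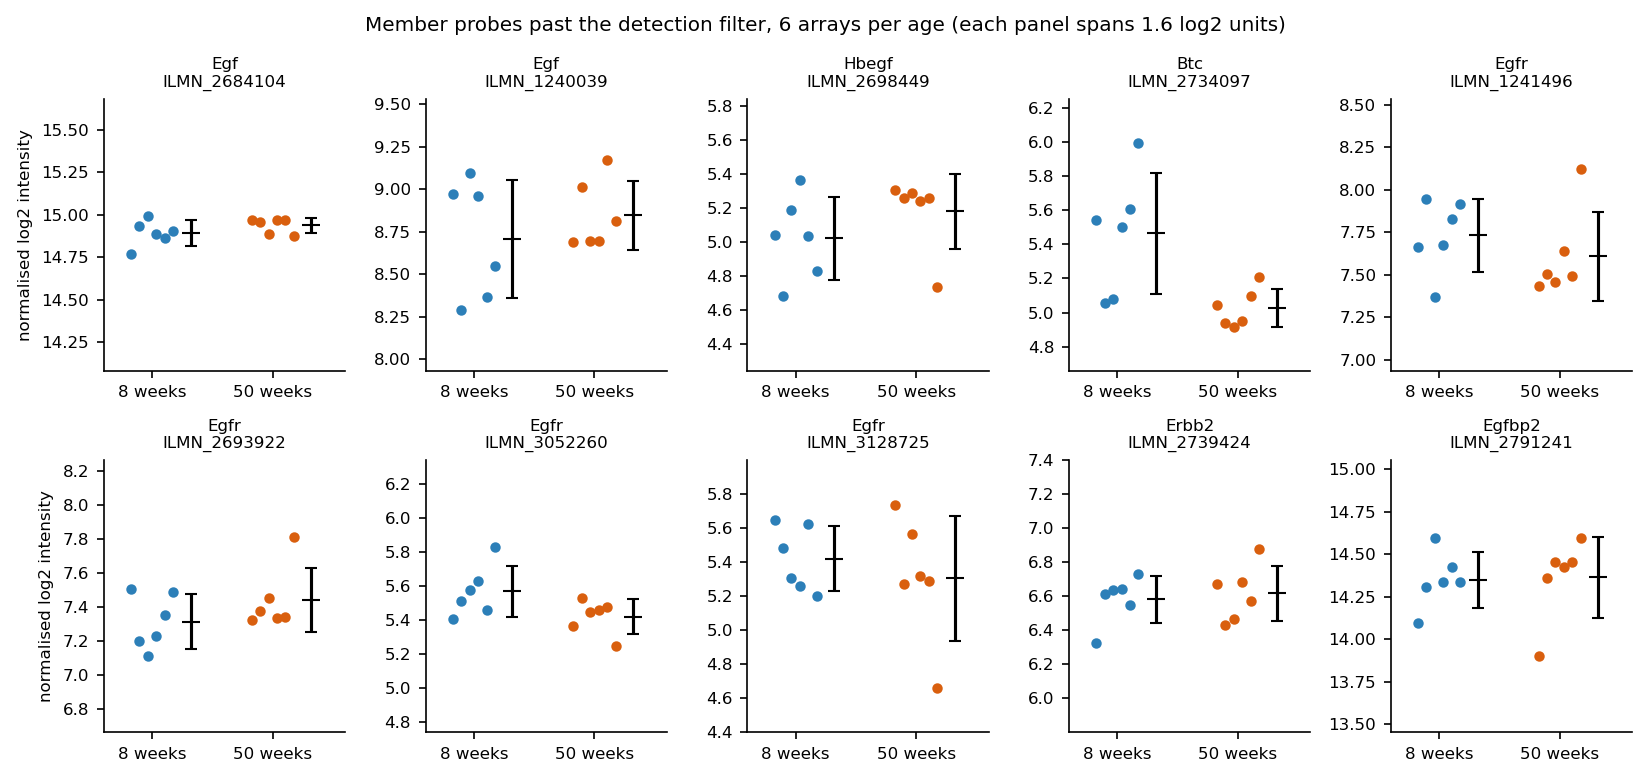
Normalised log2 intensity (y axis) of the 10 member probes past the detection filter on each array at 8 weeks (blue) and 50 weeks (orange), with the mean and SD of 6 arrays beside the points. The ages overlap in each panel, and Btc has the widest gap between its means, 5.47 and 5.03.

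Egf encodes the precursor of EGF, the ligand for which the gland of male mice is a main source. Its probe ILMN_2684104 read 14.77 at the lowest, 14.90 at the median and 14.99 at the highest over the 8-week arrays, and 14.88, 14.96 and 14.97 over the 50-week arrays. The young range enclosed the old one. The means were 14.89 ± 0.07 and 14.94 ± 0.04 (SD, n = 6), a change of 0.05 ± 0.07 (limma adjusted p = 0.731). The 95% interval of the difference, -0.10 to 0.19, corresponds to at most a 1.14-fold rise on this scale.

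This probe lay near the top of the scale. On each array only 11 to 31 of the 45281 probes were brighter, and its intensity was 70.0% to 85.7% of the brightest probe's. How far the signal is compressed there was not tested, so the interval does not bound the change in RNA. Quantile normalisation gives probes of equal rank the same value, and 3 of the 50-week arrays shared the value 14.97 for Egf. On the authors' scaled intensities, which keep distances between ranks, Egf averaged 30350 ± 4674 in the young and 31848 ± 2489 in the old glands, a log2 change of 0.08 ± 0.09 (limma adjusted p = 0.690).

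The other Egf probe, ILMN_1240039, carries another transcript record in the array annotation than ILMN_2684104 does. It ranged from 8.29 to 9.10 at 8 weeks and from 8.69 to 9.17 at 50 weeks. It changed by 0.14 ± 0.15 (limma adjusted p = 0.628), with an interval of -0.19 to 0.47. The ages overlapped on 5 of 6 old arrays, and 1 old array lay above every young one. Its change was 0.06 without 8 weeks array 2, 0.07 without 8 weeks array 5, 0.08 without 50 weeks array 5 and 0.22 without 8 weeks array 3, and none of these passed. The probes did not track each other from array to array, with Pearson's r = 0.06 (permutation p = 0.895) and Spearman's rho = -0.02 (permutation p = 0.958) over 12 arrays after removing the mean of each age. Of 7 probe pairs compared in the family, this was the only pair of Egf, and its adjusted permutation p values were 0.895 and 0.958. Without the 2 arrays farthest from the median of the brighter probe r was 0.05. The brighter probe varied little, with an SD of 0.07 at 8 weeks and 0.04 at 50 weeks. A low r therefore says little on whether the transcripts vary together.

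Egfbp2 was also among the brightest probes, with 39 to 66 brighter ones per array. It read 14.10 to 14.60 at 8 weeks, with a median of 14.34, and 13.90 to 14.60 at 50 weeks, with a median of 14.44. The low value was 50 weeks array 1, and the other 5 old arrays lay inside the young range. The change was 0.01 ± 0.12 (limma adjusted p = 0.958, interval -0.24 to 0.27), and its sign turned on the authors' scaled intensities, at -0.06. Egfbp2 belongs to a family of closely similar kallikrein genes, and how far its probe separates them was not tested. The gene list of assembly GRCm38.p6 holds Egfbp2 as an older name of Klk1b26, whose own brightest probe changed by 0.03 ± 0.09 (limma adjusted p = 0.859).

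Egf and Egfbp2 were set beside 12 measured kallikreins of the granular ducts. Of those, 1 passed and fell, Klk1, the tissue kallikrein that releases kinins, and 11 did not pass. Over all 9379 genes with a tested probe 10.6% passed, 5.1% as lower. The count by itself thus does not mark the granular duct genes out. Klk1 read 14.81 to 15.06 at 8 weeks and 14.01 to 14.48 at 50 weeks, without overlap, a change of -0.73 ± 0.09 (limma adjusted p = 0.00023). Over the 11 others the changes ran from -0.14 for Klk1b16 to 0.15 for Klk1b5. These probes lay near the top of the scale as Egf did, where ranks set the values, and whether larger changes in RNA were hidden there was not tested. The level of Klk1 minus that of Egf within an array averaged 0.05 ± 0.14 at 8 weeks and -0.73 ± 0.20 at 50 weeks. It is given as a description without a test, since Klk1 was chosen after its fall was known.

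**Figure D2:**
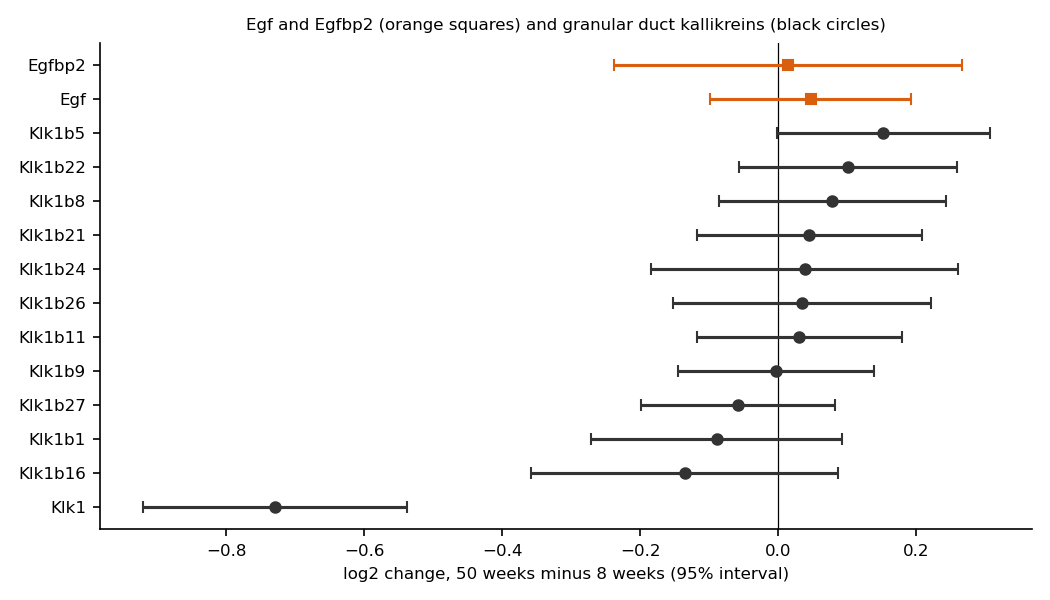
Log2 change at 50 weeks against 8 weeks with its 95% interval (x axis) for Egf and Egfbp2 (orange squares) and 12 granular duct kallikreins (black circles), each by its brightest probe. Klk1 stands alone at -0.73, and the intervals of Egf and Egfbp2 include 0.

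Btc, betacellulin, a ligand of Egfr and Erbb4, had the largest difference of the 10 probes and did not pass. Its probe ILMN_2734097 read 5.06 at the lowest, 5.52 at the median and 6.00 at the highest on the 8-week arrays, and 4.92, 5.00 and 5.21 on the 50-week arrays. In the old group 4 of 6 values were under the lowest young value, and 8 weeks arrays 2 and 3 lay within the old range. The means were 5.47 ± 0.35 and 5.03 ± 0.11 (SD, n = 6), a difference of -0.44 ± 0.14 with an interval of -0.74 to -0.13 (limma unadjusted p = 0.00831, adjusted p = 0.0689).

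Btc was detected on 12 of 12 arrays but stood close to background. The lowest detected probe of an array averaged 5.02 at 8 weeks and 4.92 at 50 weeks, so the old mean of 5.03 was 0.10 above it. The difference passed without 8 weeks array 2 (-0.52, limma adjusted p = 0.0274), without 8 weeks array 3 (-0.52, adjusted p = 0.0399), without 50 weeks array 6 (-0.49, adjusted p = 0.0322) and with array weights (-0.53, adjusted p = 0.00637). It also passed without both 8 weeks array 2 and 50 weeks array 6, and with the replicate number fitted as a block. It was -0.13 without background correction (adjusted p = 0.116), -0.24 with a larger offset (adjusted p = 0.0879) and -0.18 on the authors' scaled intensities (adjusted p = 0.144), where the means were 134 ± 12.2 and 118 ± 8.56.

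**Figure D3:**
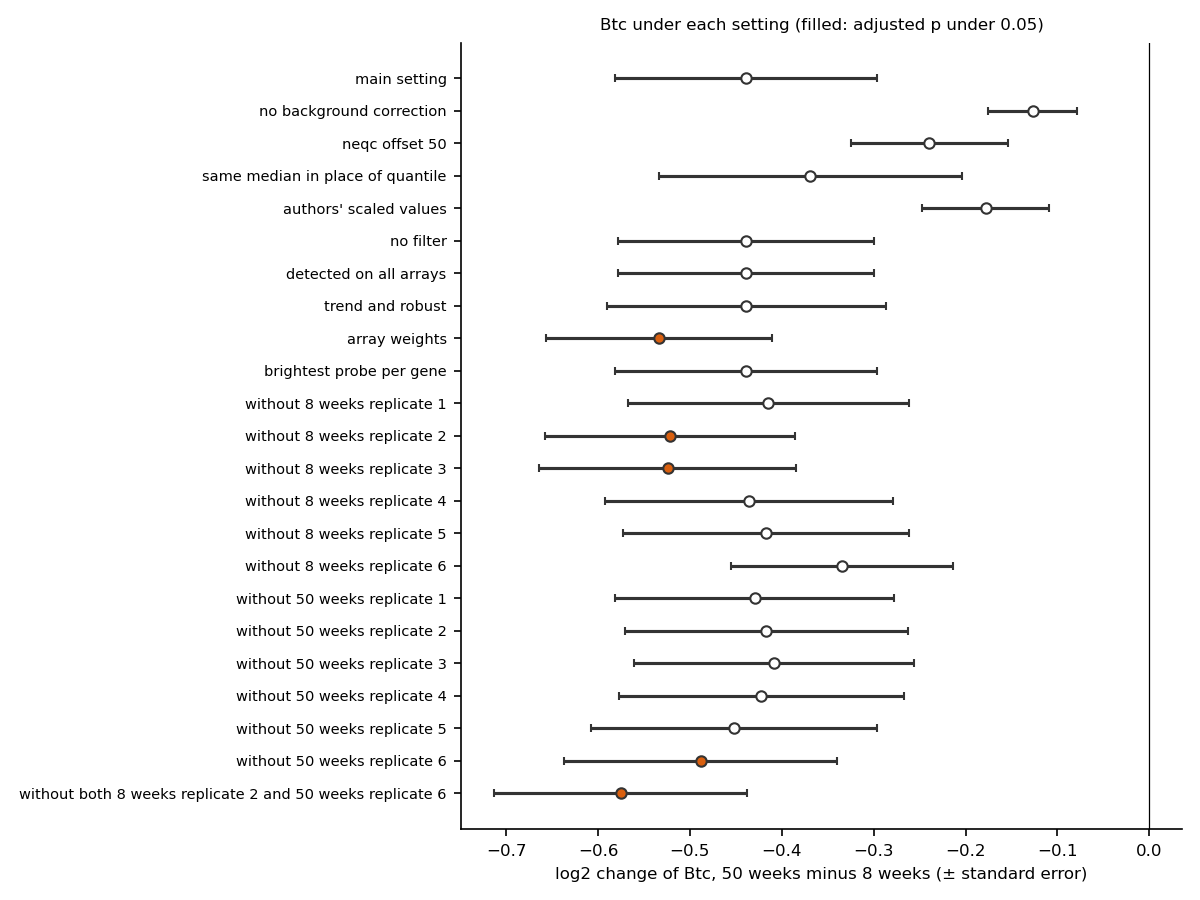
Log2 change of Btc at 50 weeks against 8 weeks (x axis, ± standard error) in the main setting and in alternative settings (y axis). Points filled in orange passed the adjusted threshold of 0.05. Each value is below 0, between -0.58 and -0.13. The setting with the replicate number fitted as a block, in which Btc passed, is not shown.

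Hbegf, heparin-binding EGF-like growth factor, was at the edge of detection. Its probe ILMN_2698449 passed detection on 3 of 6 arrays at 8 weeks and on 5 of 6 at 50 weeks. It ranged from 4.68 to 5.36 at 8 weeks and from 4.74 to 5.31 at 50 weeks, and the ages overlapped. The fitted difference was 0.16 ± 0.13 (limma adjusted p = 0.493), with no fold because the young mean, 5.02, was at the mean floor of that age. On 50 weeks array 6 it read 4.74, while the other 5 old arrays lay between 5.25 and 5.31. Without that array the difference was 0.26 ± 0.11 (limma adjusted p = 0.106), and without 8 weeks array 2 it was 0.09 (adjusted p = 0.715). Its other probe passed on 0 of 6 and 1 of 6 arrays.

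Tgfa, transforming growth factor alpha, which many epithelia make as their own Egfr ligand, passed detection on 1 of 6 arrays at 8 weeks and on 0 of 6 at 50 weeks. Its values ran from 4.31 to 5.21 at 8 weeks and from 4.47 to 4.94 at 50 weeks, below the mean floor on all but 1 array of each age. No fold is given for it. Of the ligands outside this set, Ereg, Nrg1 and Nrg3 were detected on 0 of 12 arrays by their brightest probe, Epgn on 0 of 6 at 8 weeks and 2 of 6 at 50 weeks, and Nrg4 on 2 of 6 arrays of each age.

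Among receptors, Egfr had 6 probes, and 4 were tested. The brightest, ILMN_1241496, read 7.37 to 7.94 at 8 weeks, with a median of 7.75, and 7.43 to 8.12 at 50 weeks. The highest value was that of 50 weeks array 6, and the other old arrays reached at most 7.64. Its change was -0.12 ± 0.13 (limma adjusted p = 0.620). The next, ILMN_2693922, read 7.11 to 7.51 and 7.32 to 7.81, again highest on 50 weeks array 6, with a change of 0.12 ± 0.11 (limma adjusted p = 0.512). The changes of the brighter pair were thus opposite in sign, and neither passed. Without 50 weeks array 6 they were -0.23 ± 0.10 (limma adjusted p = 0.117) and 0.05 ± 0.08 (adjusted p = 0.699).

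The dimmer pair, ILMN_3052260 and ILMN_3128725, carries another RefSeq transcript of Egfr in the array annotation than ILMN_2693922 does. They changed by -0.15 ± 0.09 (limma adjusted p = 0.326) and -0.11 ± 0.16 (adjusted p = 0.712), and the ages overlapped for each. ILMN_3128725 read 4.66 on 50 weeks array 6, where it was not detected, and without that array its change was 0.02. The remaining 2 Egfr probes passed detection on 0 of 6 young arrays each, and on 1 and 0 of 6 of the old. Over the 6 pairs of tested Egfr probes, Pearson's r between arrays, after removing the age means, ran from -0.59 to 0.72, and the lowest adjusted permutation p was 0.234. The highest r, 0.72 between the brighter pair (permutation p = 0.0335, adjusted 0.234; Spearman's rho = 0.52, permutation p = 0.0861, adjusted 0.602), was 0.22 without the 2 arrays farthest from the median, so it rested on those arrays.

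Erbb2, the partner receptor without a ligand, read 6.32 to 6.73 at 8 weeks and 6.43 to 6.88 at 50 weeks. The medians were 6.62 and 6.63, and the change was 0.03 ± 0.10 (limma adjusted p = 0.872, interval -0.17 to 0.24), with -0.02 without 8 weeks array 1. Erbb3 was detected on 0 of 12 arrays, at 4.35 to 4.83 and 4.35 to 4.68, and so was Erbb4 by its brightest probe. Apart from Btc, the 95% intervals of the 9 other tested member probes lay between -0.45 and 0.47.

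**Figure D4:**
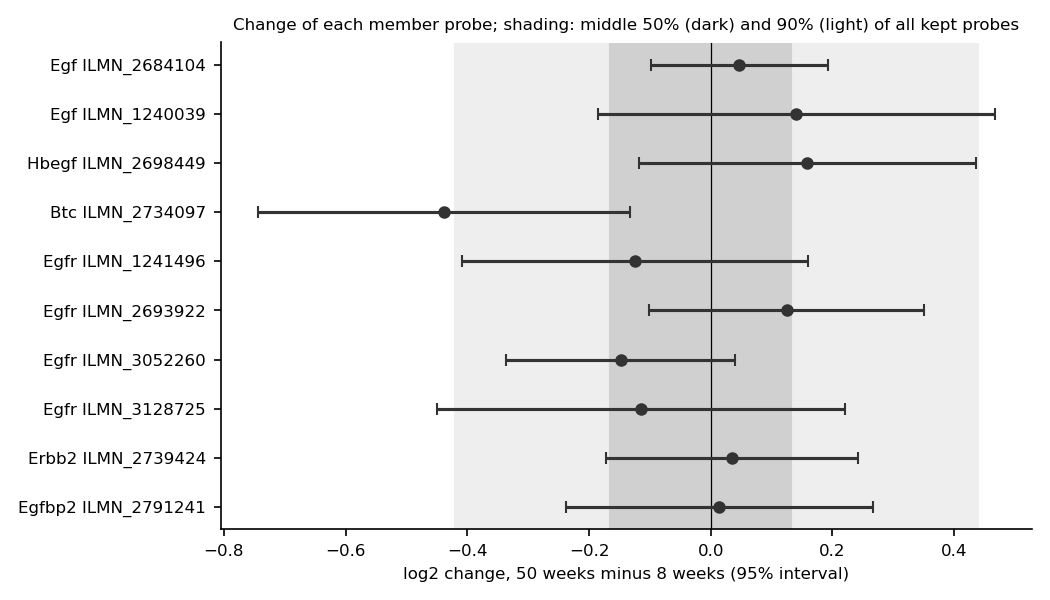
Log2 change at 50 weeks against 8 weeks (x axis) of the 10 tested member probes (y axis), with 95% intervals. Dark and light shading hold the middle 50% and 90% of the changes of all 16254 probes tested, and Btc at -0.44 lies just beyond the light band.

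The pathway around the receptors was followed through 89 genes in 7 lists, covering shedding proteases, adaptors, kinases, inhibitors and early target genes. No probe carried the symbol of 9 of them, 25 did not pass the detection filter, and 55 were tested by their brightest probe. Of these, 1 rose and 2 fell at the threshold over all probes, with a median change of -0.05. Over all 9379 genes with such a probe 10.6% passed, 5.52% as higher and 5.1% as lower, with a median change of -0.02.

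The genes that fell were Map2k1 and Pik3r1. Map2k1, the kinase MEK1 that activates ERK, read 7.24, 7.72 and 7.78 at the lowest, median and highest young array and 6.85, 7.04 and 7.36 at 50 weeks. In the old group 5 of 6 values were under the lowest young value, a change of -0.55 ± 0.11 (limma adjusted p = 0.00821), which lost its call where arrays were scaled to a common median in place of quantiles (-0.42, adjusted p = 0.211). It was 1 of 4 Ras-MAPK kinases tested. Nras, a small GTPase upstream of it, changed by -0.10 ± 0.09 (adjusted p = 0.541) on its brightest probe. The next probe of Nras changed by -0.23 ± 0.13 (adjusted p = 0.314) and the dimmest by -0.56 ± 0.12 (adjusted p = 0.0115). That dimmest probe averaged 5.53 over the arrays, near the mean floors of 5.02 at 8 weeks and 4.92 at 50 weeks.

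Pik3r1, the regulatory subunit of PI3K, read 10.67, 10.94 and 11.06 at 8 weeks and 10.52, 10.56 and 10.62 at 50 weeks, without overlap. Its change was -0.33 ± 0.08 (limma adjusted p = 0.0239), and -0.27 ± 0.09 (adjusted p = 0.0629) on another probe. The call ended without any 1 of 8 weeks arrays 1, 3, 5 and 6 and 50 weeks arrays 4 and 5 (adjusted p up to 0.0545), on the authors' scaled intensities (0.051) and under common-median scaling (0.548). It also ended with the replicate number fitted as a block. Pik3r1 was 1 of 8 tested in the PI3K-Akt and Stat list. There Pdpk1, the kinase that activates Akt, had -0.24 ± 0.08 on its brightest probe and -0.21 ± 0.14 on another (adjusted p = 0.0815 and 0.393).

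The rise was in the list of immediate early targets, genes that growth factor signals induce within a short time. Phlda1, a pleckstrin-homology-like protein, read 11.69, 12.16 and 12.36 at 8 weeks and 12.38, 12.56 and 12.80 at 50 weeks. All 6 old arrays lay above every young one, and the change was 0.48 ± 0.12 (limma adjusted p = 0.0239), a 1.39-fold rise. The call ended without 8 weeks array 6 or 50 weeks array 3 or 4 (adjusted p up to 0.0563). Of the 17 tested genes of this list 12 had a positive and 5 a negative difference, with a median of 0.19. Over all 9379 genes with a tested probe 4359 were positive. Egr1, a zinc-finger transcription factor, had the largest difference, 0.81 ± 0.29 (adjusted p = 0.0917), with 2 of 6 old arrays above every young one. It passed without 8 weeks array 2 (1.00, adjusted p = 0.0256). Some positive genes were near background and met the filter mainly through the old arrays. At 8 weeks the detection calls numbered 2 for Egr3 and Ier2, 3 for Atf3 and Fosb and 4 for Egr2. At 50 weeks they numbered 6 for Egr3, Atf3 and Egr2, 5 for Ier2 and 4 for Fosb. How far the filter sets the split of 12 to 5 was not tested. Some of these genes also varied alike over arrays. On 8 weeks arrays 1 and 2 Egr1 read 9.42 and 9.69, and at most 8.54 on the other young arrays. Fos read 7.91 and 8.18 there, and at most 6.60 on the others. Klf6 did not follow, and was lowest on 8 weeks array 2. The 17 genes are thus not independent counts, and the split is a description.

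No gene passed in the lists of ligand shedding (6 tested), adaptors (9 tested) and feedback (11 tested). Among sheddases and their carriers, Rhbdf2, which escorts ADAM17 to the cell surface, had 0.22 ± 0.12 (limma adjusted p = 0.286). Furin, a convertase that activates such proteases, had -0.14 ± 0.08 on its brightest probe and 0.37 ± 0.14 on another (adjusted p = 0.326 and 0.108). Of the adaptors, the endocytic protein Eps15 had -0.38 ± 0.12 (adjusted p = 0.061) and the Ras exchange factor Sos2 -0.20 ± 0.10 (adjusted p = 0.231). Of the inhibitors, the ERK phosphatase Dusp6 had 0.28 ± 0.09 on its brightest probe and 0.18 ± 0.13 on another (adjusted p = 0.0622 and 0.426). Rasa1, which switches Ras off, had -0.29 ± 0.09 (adjusted p = 0.0657). These calls depended on the setting. By their brightest probes, of 24 alternatives Dusp6 passed in 9, Rasa1 in 5, Eps15 in 2 and Sos2 in 1. Dusp6 and Rasa1 passed without background correction (adjusted p = 0.0237 and 0.0304) and without 50 weeks array 6 (0.047 and 0.0458), and Dusp6 without 8 weeks array 2 (0.0198). Without 50 weeks array 6 the number of pathway genes past the threshold was 9 in place of 3, while over all probes it went from 1567 to 3722. It was 5 without 8 weeks array 2, 2 without any 1 of 8 weeks arrays 5 and 6 and 50 weeks arrays 3 and 5, and 1 without 50 weeks array 4.

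**Figure D5:**
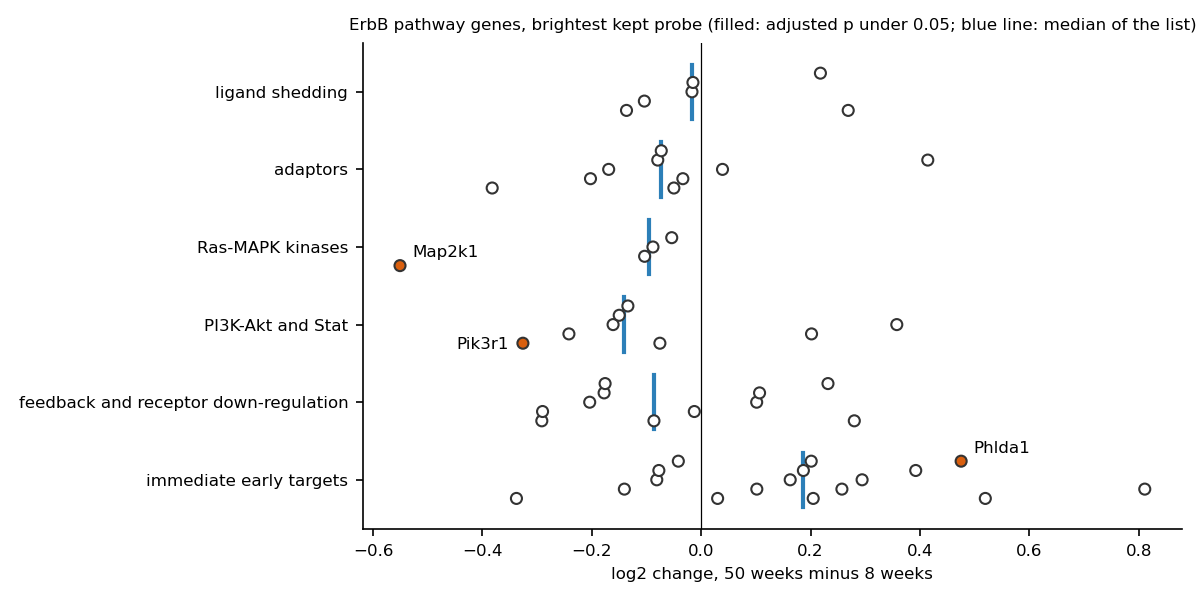
Log2 change at 50 weeks against 8 weeks (x axis) of 55 ErbB pathway genes by list (y axis), each point being the brightest tested probe of a gene and the blue line the median of the list. Map2k1, Pik3r1 and Phlda1, filled in orange, passed the adjusted threshold of 0.05.

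Some marker lists of other cell types differed between the ages, and others varied over arrays. Over all 9379 genes with a tested probe 5.52% rose and 5.1% fell. Of 9 tested leukocyte markers 6 rose. At 8 weeks the detection calls numbered 2 for Mzb1, Cd3g and Cd79b and 1 for Ptprc. At 50 weeks they numbered 6, 6, 6 and 5, so these genes met the filter mainly through the old arrays. Mzb1 and Cd3g are among the 6 that rose, and how far the filter raised that count was not tested. The others that rose, Cd74, Aif1, Csf1r and Cd3e, had at least 5 calls at each age. The summed normalised intensity of the 9 markers, weighted to Cd74, the brightest, ran from 1766 to 5040 at 8 weeks. At 50 weeks it ran from 4666 to 7298. Of 6 tested myoepithelial markers 4 rose. Myh11 and Mylk did not pass, each with 5 old arrays above and 1 below every young one. Sums over the 6 markers, weighted to Acta2, the brightest, ran from 11050 to 13840 at 8 weeks and from 15580 to 17810 at 50 weeks. Cnn1 and Oxtr were detected on 0 of 12 arrays. Of 7 fibroblast markers 1 rose and 3 fell, with sums of 5916 to 8217 and 4786 to 6783. Those sums are weighted to Dcn, the brightest, which did not pass. Col3a1 (-1.13), Col1a1 (-0.97) and Col1a2 (-0.87) fell, and Lum (0.54) rose. For acinar markers 1 of 10 rose, with sums of 161700 to 176400 and 168100 to 176300, and of 9 duct markers 1 rose and 1 fell. These counts of 1 are too small to tell from the shares over all genes. The acinar sums include probes near the top of the scale, such as Dcpp2, which read 15.23 on every old array. Markers of the neighbouring parotid and sublingual glands varied over arrays, from 6312 to 60710 at 8 weeks and from 9189 to 51720 at 50 weeks, and 0 of 5 passed. Sums for 2 adipocyte markers ran from 58.9 to 1958 and from 53.4 to 226, with Plin1 detected on 0 of 12 arrays, and endothelial sums from 411 to 558 and from 420 to 468. Of 6 skeletal muscle markers Acta1 alone was tested and did not pass, with 41.6 to 529 at 8 weeks and 44.5 to 63.0 at 50 weeks, and Myh1 was detected on 0 of 12 arrays. The part of these cells in the values of Btc, Map2k1, Pik3r1 and Phlda1 was not tested.

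For each tested member, the 3 other genes whose deviations from the age means were most like its own were taken from 9373 genes over 12 arrays, by Pearson's r. They were Tinagl1 (0.958), Tnfsf10 (0.911) and Noc2l (0.857) for Egf, Fam91a1 (0.923), Ptprk (0.913) and Scgb1b27 (0.898) for Egfbp2, and Ppil2 (0.930), Bglap (0.892) and Engase (0.889) for Btc. For Hbegf they were Asnsd1 (0.945), Cyp51 (0.943) and Ppm1a (0.928), for Egfr Scarf2 (0.954), Nfyc (0.940) and Clip4 (0.940), and for Erbb2 Iars2 (0.909), Vcp (0.863) and Fam53b (0.861). Without 50 weeks array 6 the r of these 18 pairs lay between 0.821 and 0.971. Each is the highest of many on few arrays and is a description. No kallikrein was among the 3 genes most like Egf. Egf and the kallikreins lay near the top of the scale, where ranks set the values. The absence therefore does not show whether they vary together.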

How the data were processed

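The authors deposited a table of probe intensity on a linear scale with a detection p-value per array, per the file headers, with no stated scaling between arrays. A second deposited table held the same intensity multiplied by 1 factor per array (0.803 to 1.26), which gave each array a mean of 260.6. The software that made them is not given in the sources used here. From the unscaled table, background correction from the detection p-values, quantile normalisation and log2 were done by neqc of limma 3.58.1 (offset 16, R 4.3.3). Probes with a detection p-value under 0.05 on at least 6 of 12 arrays were tested with lmFit and eBayes, 2-sided, adjusted by Benjamini-Hochberg over 16254 probes. Symbols came from the array annotation (34885 probes with 1 symbol, 18 with several, 10378 with none), and 34807 of these matched the given gene list of assembly GRCm38.p6. Probe sequences and proteins were not used here. Members and lists were chosen with earlier results of these data known. Named genes are all member probes, list genes past the threshold, the 2 genes with the smallest p in each pathway list, and the 3 genes most like each member. Array numbers limit the precision.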

Additional observations from a re-analysis of the deposited data

Results flagged for a closer look

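Among 23 probes named above, 46 groups of 6 arrays were searched for an array far from the others. Such an array was found in 6 groups, 4 of them of members, where chance alone gives about 1 in 20. The groups share arrays and are not independent. Most of the 6 lay on 50 weeks array 6, so they are not 6 separate findings. On 50 weeks array 6, Hbegf read 4.74, below the next at 5.25. The same array had the highest values of 2 Egfr probes, 8.12 against 7.64 for ILMN_1241496 and 7.81 against 7.45 for ILMN_2693922, and of Nras, 8.89 against 8.59. On 50 weeks array 1, Egfbp2 read 13.90 against 14.36 for the next, and Furin 10.52 against 10.78.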

How the results depend on the processing

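A member probe passed in 6 of 24 alternatives, each time that of Btc. The count of member probes was 1 with array weights, 1 without both 8 weeks array 2 and 50 weeks array 6, and 0 to 1 when any array was left out. Pathway genes past the threshold, 3 in the report, were 6 without background correction, 5 with an offset of 50, 1 with arrays scaled to the same median, 5 with probes detected on all arrays, 5 with a trended robust prior, 13 with array weights, 11 without both arrays and 1 to 9 when any array was left out. All probes past it, 1567, were 508 at the same median (424 higher and 84 lower, against 804 and 763), 4226 with array weights, 4138 without both arrays and 1052 to 3722 when any array was left out. Same-median scaling moved the median change of all probes from -0.02 to 0.10. There the changes of Egfr turned to 0.011 (ILMN_1241496) and 0.062 (ILMN_3128725) and that of Nras to 0.013, all below that median. Other signs turned for values near 0. Egfbp2 was -0.060 on the authors' values, -0.039 without both arrays and -0.036 to 0.10 when any array was left out. Erbb2 was -0.0074 with array weights, -0.011 without both arrays and -0.017 to 0.072 when any array was left out. ILMN_3128725 of Egfr was 0.028 without both arrays and -0.19 to 0.016 when any array was left out. The cause was not tested. Whether replicate numbers pair the arrays is not stated. Same-number correlations of deviations ran from 0.02 to 0.288, each positive and 4 of 6 over 0.1. Of the 12 arrays, 3 correlated best with their own number, so pairing was left undecided. With the replicate number as a block, member probes past the threshold were 1 (Btc, limma adjusted p = 0.0452), pathway genes 3 and all probes 1175. Under the block Egr1 passed (adjusted p = 0.00996) and Pik3r1 did not (0.0568). The alternatives for Klk1 relative to Egf were chosen after seeing the data, and the difference between the ages ran from -0.86 to -0.72. Signal near background limits Btc, Hbegf, Tgfa, Erbb3 and the dimmer Egfr probes.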
